A study of Mus musculus with 9 samples.

Results

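The 9 genes described here encode the proteins that release fatty acids from circulating triglyceride and bring them into fat cells: lipoprotein lipase (*Lpl*), its inhibitor *Angptl4*, its capillary anchor *Gpihbp1*, its maturation factor *Lmf1*, the fatty acid carriers *Cd36* and *Slc27a1*, the cytosolic binding protein *Fabp4*, the acyl-CoA synthetase *Acsl1* and the lipoprotein receptor *Vldlr*. They were taken by gene symbol from a table of 56748 genes, and all 9 were among the 18510 genes that passed the filter on low counts. Over 2 weeks of weight loss the group did not move one way. *Vldlr* and *Acsl1* fell and *Slc27a1* rose. The test was repeated with each library left out in turn. The change after 2 weeks passed in 9 of these 9 fits for *Vldlr*, 6 for *Acsl1* and 1 for *Slc27a1*. *Lpl* itself varied widely between the libraries taken before the weight loss, and its lower mean afterwards did not pass the test.

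RNA was sequenced from epididymal adipose tissue, a visceral fat depot, of male wild-type C57BL/6J mice that started high-fat diet (HFD) at 8 weeks of age and received it for 8 weeks. The 3 Pre libraries come from mice at the end of this period, the 3 WL1 libraries from mice then given standard diet (SD) for 1 week, and the 3 WL2 libraries from mice given SD for 2 weeks. Mice kept on HFD alongside WL1 and WL2 were not analysed here, so the change of diet and the added age cannot be told apart. The labels do not tie a library to a single mouse, so the p-values measure the spread between these libraries.

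Triglyceride reaches adipose tissue in lipoproteins of the blood. Lipoprotein lipase is made by adipocytes, folded with the help of LMF1 in the endoplasmic reticulum, carried across the capillary wall by GPIHBP1 and held there, where it splits triglyceride into fatty acids. ANGPTL4 inactivates the enzyme, and its gene is known to be induced by fasting in white adipose tissue. CD36 and the transporter FATP1, encoded by *Slc27a1*, favour entry of the fatty acids into the cell, ACSL1 activates them to acyl-CoA, FABP4 binds them in the cytosol, and the VLDL receptor holds triglyceride-rich lipoproteins near the lipase. Several of these genes, among them *Lpl*, *Fabp4*, *Cd36*, *Angptl4* and *Acsl1*, are textbook targets of the nuclear receptor PPARγ.

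Between 16434450 and 22729072 reads were counted per library, and the 9 genes together took 1.89% to 3.34% of them, the lowest share in Pre replicate 2. Values are given as CPM, the reads of a gene relative to the library total, after TMM scaling of the libraries (factors 0.933 to 1.07). The phases were tested in edgeR (quasi-likelihood) over all genes, and a gene is called where its Benjamini-Hochberg adjusted p is under 0.05. Both comparisons with Pre use the same Pre libraries, so their values are set side by side below and not counted as separate support. Adipocyte markers were abundant in every library (*Adipoq*, which encodes adiponectin, at 1675 to 3457 CPM), whereas the brown adipocyte gene *Ucp1* had at most 5 reads and *Zic1* had none. Of 7 skeletal muscle genes, *Myh4* had no reads and *Ckm* at most 3, but *Myl1* and *Acta1* were present, and *Acta1* fell at WL1 against Pre (log2 fold change -2.41, edgeR adjusted p = 0.0131). The summed CPM of the 5 muscle genes tested was 62.3 to 75.1 at Pre, 26.6 to 30.5 at WL1 and 35.1 to 55.4 at WL2. *Acta1* and *Myl1* made up nearly all of this sum. The other tested muscle genes had means of 0.38 to 1.19 CPM. Their log2 fold changes at WL1 against Pre were 0.12 to 0.79, and none passed. The part of muscle RNA in the values below was not tested. Mitochondrial transcripts made up 3.15% to 3.57% of the counts at Pre, 1.86% to 2.03% at WL1 and 2.28% to 2.88% at WL2.

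Of the 9 genes, 0 were past the threshold and higher at WL1 against Pre and 1 was lower (*Vldlr*), where 2.60% of all genes tested were higher and 4.69% lower. At WL2 against Pre, 1 was higher (*Slc27a1*) and 2 were lower (*Acsl1* and *Vldlr*), where 3.35% of all genes were higher and 6.66% lower. At WL2 against WL1, edgeR called 0 of the 9, and of these only *Vldlr* had an unadjusted p under 0.05 (0.0213). DESeq2 also called 0 in that comparison, in which 1.31% of all genes were higher and 2.37% lower by edgeR. The median log2 fold change of the 9 genes was -0.15, -0.33 and -0.069 in the 3 comparisons, against 0.021, 0.0084 and -0.0014 over all genes tested. The count at WL1 was 0 without WL1 replicate 1 or 3 and 2 without Pre replicate 2, and that at WL2 against Pre was 1 without WL2 replicate 2 or 3. The libraries of the phases did not overlap for 5 of the 9 at WL1 against Pre, 6 at WL2 against Pre and 2 at WL2 against WL1, where all genes tested gave 28.7%, 30.9% and 30.3%.

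**Figure D1:**
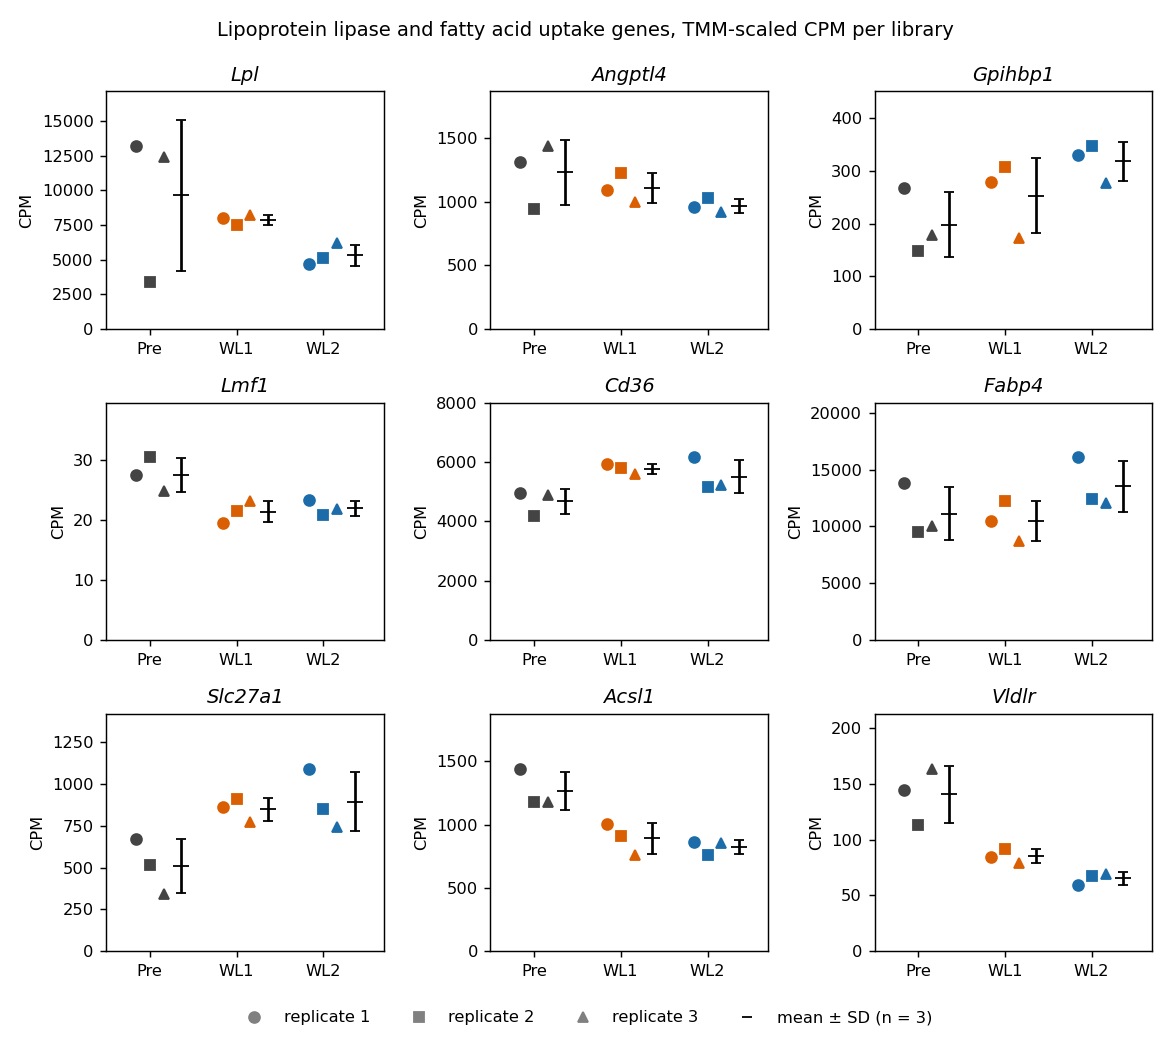
Each panel plots the TMM-scaled CPM (linear axis from 0) of 1 gene in the 3 libraries of each phase, with the mean ± SD (n = 3) beside them in black. The Lpl panel shows Pre replicate 2 at 3370 CPM below every other library, while the Vldlr panel shows the 3 phases in separate ranges.

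*Lpl* lies on chromosome 8 at 69333143 to 69360100 (plus strand). At Pre it stood at 13178 CPM in replicate 1, 3370 CPM in replicate 2 and 12399 CPM in replicate 3. The WL1 libraries held 7984, 7479 and 8195 CPM, and the WL2 libraries 4715, 5105 and 6182 CPM. The lowest value of all 9 libraries and the 2 highest were thus all at Pre, whereas every WL2 library was below every WL1 library. The means were 9649 ± 5452 CPM at Pre, 7886 ± 368 CPM at WL1 and 5334 ± 760 CPM at WL2 (SD, n = 3).

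The log2 fold change of *Lpl* was -0.29 at WL1 against Pre (SE 0.38, edgeR adjusted p = 0.684), -0.86 at WL2 against Pre (SE 0.39, adjusted p = 0.192) and -0.56 at WL2 against WL1 (SE 0.38, adjusted p = 0.451). The 95% confidence interval of the fold at WL2 against Pre ran from 0.306 to 0.999. These values rest on Pre replicate 2, in which *Lpl* was 3.91-fold below replicate 1 and 3.68-fold below replicate 3. With that library left out, an alternative in which Pre has 2 libraries, *Lpl* passed the threshold in all 3 comparisons, with log2 fold changes of -0.70 (edgeR adjusted p = 0.0266), -1.26 (adjusted p = 0.000896) and -0.56 (adjusted p = 0.0393). The last estimate hardly moved, while its SE went from 0.38 to 0.13. Without Pre replicate 1 the value at WL1 against Pre was 9.23e-05, so the comparison of *Lpl* with Pre takes its size from which Pre libraries are used.

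Few other abundant genes stood as low in Pre replicate 2. Of 2006 genes with a mean of at least 100 CPM, 5 were at least 3-fold below both other Pre libraries there (*Lpl*, *Eif5b*, *Pnisr*, *Prpf38b* and *Rrbp1*) and 2 were at least 3-fold above. The corresponding counts were 1 and 0 for replicate 1 and 0 and 0 for replicate 3. The summed CPM of 12 adipocyte markers in Pre replicate 2 (19733) lay within the range of the other Pre libraries (19015 and 22712), and the macrophage sum was the highest of the 3 (3335 CPM against 1777 and 2785 CPM). Whether these differences have a part in the low *Lpl* value was not tested.

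*Angptl4* encodes a secreted inhibitor of the lipase (chromosome 17, 33992724 to 34000804, minus strand). It was at 1311, 943 and 1434 CPM at Pre, at 1092, 1227 and 999 CPM at WL1 and at 961, 1025 and 916 CPM at WL2. Replicate 2 was again the lowest Pre library, inside the range of WL2, so the phases overlapped. Against Pre, the log2 fold change was -0.15 at WL1 (SE 0.16, edgeR adjusted p = 0.593) and -0.35 at WL2 (SE 0.16, adjusted p = 0.196). Without Pre replicate 2 the latter was -0.50 and passed the threshold (edgeR adjusted p = 0.0375). At WL2 against WL1 it was -0.19 (SE 0.16, adjusted p = 0.540).

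*Gpihbp1*, on chromosome 15 at 75468477 to 75471330 (plus strand), encodes the protein of capillary endothelium that binds the lipase. Its values were 268, 148 and 179 CPM at Pre, 279, 308 and 174 CPM at WL1, and 330, 347 and 277 CPM at WL2. Every WL2 library was above every Pre library, the closest pair being 277 and 268 CPM. Its log2 fold change was 0.35 at WL1 against Pre (SE 0.25, edgeR adjusted p = 0.408) and 0.68 at WL2 against Pre (SE 0.25, adjusted p = 0.110), a fold of 1.60 with a 95% confidence interval from 1.10 to 2.34. It did not pass the threshold, although it did with DESeq2 (adjusted p = 0.0417), without the filter on low counts (edgeR adjusted p = 0.0319) and without Pre replicate 1 (edgeR adjusted p = 0.0374). Without Pre replicate 2 it was 0.51 (edgeR adjusted p = 0.250). At WL2 against WL1 the estimate for *Gpihbp1* was 0.33 (SE 0.25, adjusted p = 0.503), and these phases overlapped. Of 13 endothelial markers, 0 passed in any comparison. Their summed CPM was 3528, 2351 and 2693 at Pre, 3754, 3175 and 2040 at WL1, and 3080, 3354 and 2925 at WL2. In each phase the library with the lowest endothelial sum was also the lowest for *Gpihbp1*. The part of endothelial cells in the *Gpihbp1* values was not tested.

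*Lmf1*, on chromosome 17 at 25798059 to 25881800 (plus strand), encodes the membrane protein that lipases need to fold. It had the fewest reads of the 9 genes, with 27.4, 30.4 and 24.7 CPM at Pre, 19.5, 21.5 and 23.1 CPM at WL1 and 23.2, 20.7 and 21.8 CPM at WL2. All 6 libraries of the weight loss lay below all 3 Pre libraries. Log2 fold changes were -0.36 at WL1 against Pre (SE 0.12, edgeR adjusted p = 0.0964) and -0.33 at WL2 against Pre (SE 0.12, adjusted p = 0.115), and neither passed. Between WL1 and WL2 it was 0.037 (SE 0.12, adjusted p = 0.909), with a 95% confidence interval from -0.23 to 0.30.

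*Cd36* encodes the scavenger receptor that binds long-chain fatty acids at the cell surface (chromosome 5, 17986688 to 18093799, minus strand). The Pre libraries held 4955, 4187 and 4894 CPM, the WL1 libraries 5943, 5783 and 5607 CPM and the WL2 libraries 6154, 5153 and 5219 CPM. Each library of the weight loss was above each Pre library, by a small margin at WL2. Its log2 fold change was 0.30 for WL1 against Pre (SE 0.12, edgeR adjusted p = 0.155), 0.24 at WL2 against Pre (SE 0.12, adjusted p = 0.246) and -0.069 at WL2 against WL1 (SE 0.12, adjusted p = 0.807). Macrophages also express *Cd36*, and 7 of 11 markers of lipid-associated macrophages were past the threshold and higher at WL1 against Pre. Their summed CPM was 1554 to 2465 at Pre, 4993 to 10861 at WL1 and 1855 to 5756 at WL2. The part of these cells in the values of *Cd36*, *Lpl* and *Fabp4* was not tested. Of 12 general macrophage markers 0 passed in any comparison, and no marker of either list was at 0 in any library.

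*Slc27a1* (chromosome 8, 72021526 to 72039946, plus strand) encodes FATP1, a transport protein that responds to insulin and also activates fatty acids. Its values were 669, 516 and 343 CPM at Pre, 863, 910 and 770 CPM at WL1, and 1093, 848 and 745 CPM at WL2. All 6 libraries of the weight loss were above all 3 Pre libraries, and the WL1 and WL2 ranges overlapped. It rose 1.76-fold at WL2 against Pre (95% confidence interval 1.25 to 2.48, log2 fold change 0.81, SE 0.22, edgeR adjusted p = 0.0463). WL1 against Pre gave a log2 fold change of 0.74 (SE 0.22, edgeR adjusted p = 0.0756), which did not pass, although it did in 4 of 9 alternatives that leave no library out (with DESeq2 the adjusted p was 0.0156), and WL2 against WL1 gave 0.078 (SE 0.22, adjusted p = 0.892). The call at WL2 lies close to the threshold. It was kept when Pre replicate 1 was left out and lost when any other single library was left out, with log2 fold changes between 0.60 and 1.06 (0.82 with edgeR adjusted p = 0.0908 without Pre replicate 2). It was also lost with limma on log2(FPKM + 1) and log2(FPKM + 0.1) (adjusted p = 0.0527 and 0.0509) and with the compared phases alone (edgeR adjusted p = 0.0874).

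*Acsl1* (chromosome 8, 46924074 to 46989088, plus strand) encodes the main long-chain acyl-CoA synthetase of adipocytes. It stood at 1444, 1181 and 1178 CPM at Pre, 1009, 908 and 761 CPM at WL1, and 862, 758 and 856 CPM at WL2. Every Pre library was above every later library. It fell by 34.9% at WL2 against Pre (log2 fold change -0.62, SE 0.14, edgeR adjusted p = 0.0191). At WL1 its log2 fold change against Pre, -0.51 (SE 0.14, adjusted p = 0.0523), did not pass, although it did in 6 of 9 alternatives that leave no library out (with DESeq2 the adjusted p was 0.00249) and in 0 of 9 that leave 1 out. That at WL2 against WL1 was -0.11 (SE 0.14, adjusted p = 0.705). The call at WL2 was lost without Pre replicate 1, WL2 replicate 2 or WL2 replicate 3, and without TMM factors (edgeR adjusted p = 0.0517), and was kept without Pre replicate 2 (-0.67, adjusted p = 0.0254). A predicted gene on the other strand, *Gm45244*, overlaps *Acsl1* but had 2 reads in all libraries together.

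*Fabp4* (chromosome 3, 10269148 to 10273636, minus strand) encodes the fatty acid-binding protein that is among the most abundant proteins of adipocytes. The Pre libraries held 13791, 9483 and 10048 CPM, the WL1 libraries 10483, 12250 and 8693 CPM and the WL2 libraries 16074, 12381 and 12102 CPM. The ranges of the 3 phases overlapped. The log2 fold change was -0.085 at WL1 against Pre (SE 0.19, edgeR adjusted p = 0.822), 0.28 at WL2 against Pre (SE 0.19, adjusted p = 0.369) and 0.37 at WL2 against WL1 (SE 0.19, adjusted p = 0.299). The 95% confidence interval of the fold at WL2 against Pre ran from 0.911 to 1.63.

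*Vldlr* (chromosome 19, 27193884 to 27231631, plus strand) encodes the receptor that binds apolipoprotein E on triglyceride-rich lipoproteins. It gave the clearest difference of the 9 genes. The values were 144, 114 and 164 CPM at Pre, 84.6, 91.4 and 79.1 CPM at WL1, and 59.0, 67.5 and 69.6 CPM at WL2. The libraries of each phase were below those of the phase before it without overlap. *Vldlr* fell by 39.5% at WL1 against Pre (log2 fold change -0.72, SE 0.14, edgeR adjusted p = 0.0149). It fell by 53.5% at WL2 against Pre (log2 fold change -1.10, SE 0.14, adjusted p = 0.000956). The further difference of -0.38 at WL2 against WL1 (SE 0.14, adjusted p = 0.151) did not pass. The call at WL2 against Pre was made under each of 18 alternatives, including each library left out in turn, with log2 fold changes from -1.24 to -0.95. That at WL1 against Pre was lost without Pre replicate 1, WL1 replicate 1 or WL1 replicate 3.

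**Figure D2:**
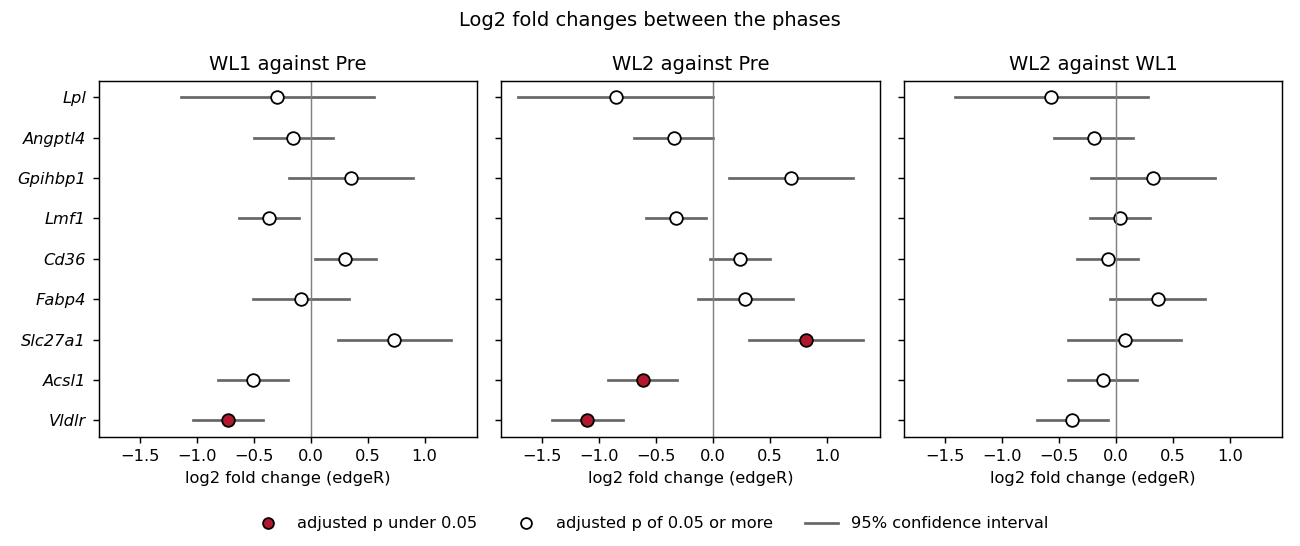
Points are edgeR log2 fold changes of the 9 genes in the 3 comparisons, bars are 95% confidence intervals, and red marks an adjusted p under 0.05. Vldlr is red at WL1 and WL2 against Pre, Acsl1 and Slc27a1 at WL2 against Pre only, and the bars of Lpl are the widest.

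**Figure D3:**
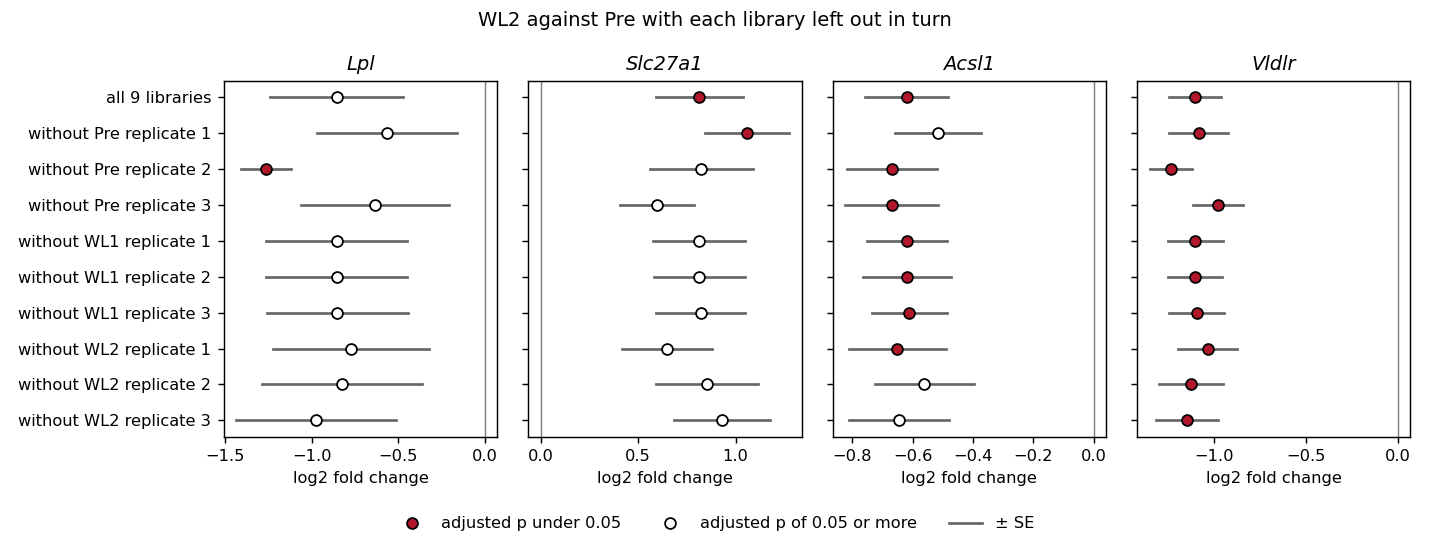
Log2 fold changes at WL2 against Pre (± SE) of Lpl, Slc27a1, Acsl1 and Vldlr are plotted with all 9 libraries and with each library left out in turn, red where the adjusted p was under 0.05. Vldlr is red in every fit, Lpl only without Pre replicate 2 (-1.26), and Slc27a1 only with all libraries or without Pre replicate 1.

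Adipocyte markers also differed between the phases. The summed CPM of 12 adipocyte markers was 19015 to 22712 at Pre, 11374 to 14541 at WL1 and 16830 to 19075 at WL2. Of the 12, 0 were higher and 4 lower past the threshold at WL1 against Pre, 3 were higher and 2 lower at WL2 against Pre, and 4 were higher and 1 lower at WL2 against WL1. No marker of the 12 was at 0 in any library. The sum was thus lowest at WL1, and at WL2 against Pre its genes moved in both directions. Of 8 fibroblast and progenitor markers, 1 was higher and 1 lower at WL2 against Pre and 0 passed in the other comparisons. Of 7 mesothelial markers 0 passed in any comparison, with summed CPM from 42.5 to 428 at Pre, 49.2 to 253 at WL1 and 271 to 770 at WL2. In bulk tissue, fewer cells of a type and less RNA per cell cannot be told apart, and the part of these marker levels in the values of the 9 genes was not tested.

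The 5′ flanks of the genes past the threshold are shown so that their sequence can be read beside the values. RefSeq start sites (GRCm38.p6) were found for 5 of the 9 genes, with 9 windows of 250 bases upstream in all. The gene positions given above do not follow that build, so they cannot be set beside the window positions printed here. *Lpl*, *Angptl4*, *Gpihbp1* and *Fabp4* were not matched. For each of the 3 genes called at WL2 against Pre, the window with the most matches is printed 5′ to 3′ on the gene's strand, with matches in capitals: the GC box GGGCGG, the box named CCAAT, the palindromic E-box CACGTG, the nuclear receptor motif AGGTCA, the TATA motif TATAAA, and a direct repeat of AGGNCA with 1 base in between. Both strands were searched, and a match on the other strand is shown as its reverse complement.
Acsl1, chr8:46470787-46471036, plus strand: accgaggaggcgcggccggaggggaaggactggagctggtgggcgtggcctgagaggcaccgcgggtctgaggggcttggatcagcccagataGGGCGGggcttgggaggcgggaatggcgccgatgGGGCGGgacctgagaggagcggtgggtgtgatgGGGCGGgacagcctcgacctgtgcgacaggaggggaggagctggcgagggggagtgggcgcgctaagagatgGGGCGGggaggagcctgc
Slc27a1, chr8:71570344-71570593, plus strand: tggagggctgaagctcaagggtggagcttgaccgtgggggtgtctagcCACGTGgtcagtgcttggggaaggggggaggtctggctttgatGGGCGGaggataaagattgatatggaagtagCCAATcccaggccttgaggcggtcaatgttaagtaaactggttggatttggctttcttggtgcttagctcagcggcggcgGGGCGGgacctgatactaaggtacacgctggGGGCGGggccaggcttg
Vldlr, chr19:27216770-27217019, plus strand: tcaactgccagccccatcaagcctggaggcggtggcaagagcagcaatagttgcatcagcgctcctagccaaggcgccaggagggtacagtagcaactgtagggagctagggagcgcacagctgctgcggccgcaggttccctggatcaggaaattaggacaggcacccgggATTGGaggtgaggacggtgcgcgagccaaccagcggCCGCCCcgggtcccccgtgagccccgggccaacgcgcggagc
The *Acsl1* window held the GC box at 157, 123, 90 and 18 bases before the start site. That of *Slc27a1* held the GC box at 159, 48 and 17 bases, CCAAT at 128 bases and the E-box at 202 bases. That of *Vldlr* held 1 GC box at 42 bases and 1 CCAAT at 78 bases, both on the minus strand. Of 32851 such windows in the RefSeq table, 32.7% held the GC box, 33.9% CCAAT, 6.02% the E-box, 14.0% the receptor motif, 12.4% the TATA motif and 0.338% the repeat. The TATA motif and the repeat were in none of the 9 windows, and the receptor motif was in that of *Cd36* alone. A match is a run of letters and does not show that a factor binds there.

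Reads of one gene set against those of another in the same library do not depend on the scaling between libraries. The pairs were chosen after the values were seen, so the ratios are given without a test. For each 100 reads of *Lpl* there were 2.04, 4.40 and 1.44 reads of *Gpihbp1* at Pre, 3.50, 4.12 and 2.12 at WL1 and 7.01, 6.80 and 4.48 at WL2. The WL2 values were above all others, though the lowest of them lay close to Pre replicate 2, the library with few *Lpl* reads. The means were 2.63 ± 1.56 at Pre and 6.10 ± 1.40 at WL2 (SD, n = 3).

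For each 100 reads of *Acsl1* there were 46.3, 43.7 and 29.1 reads of *Slc27a1* at Pre, 85.6, 100.2 and 101.3 at WL1 and 126.8, 111.9 and 87.1 at WL2. Every library of the weight loss was above every Pre library, as the values of the 2 genes already fix, and WL1 and WL2 overlapped. Reads of *Slc27a1* outnumbered those of *Acsl1* in 4 of these 6 libraries and in 0 of the 3 Pre libraries. The deposited lengths of *Slc27a1* and *Acsl1* differ (5835 and 10483 bases), so reads that outnumber others do not order their levels. *Angptl4* reads per 100 *Lpl* reads were 9.95, 28.0 and 11.6 at Pre, 13.7, 16.4 and 12.2 at WL1 and 20.4, 20.1 and 14.8 at WL2, with overlap in all 3 comparisons. Without Pre replicate 2, both other Pre libraries were below all libraries of WL1 and WL2 in this ratio.

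**Figure D4:**
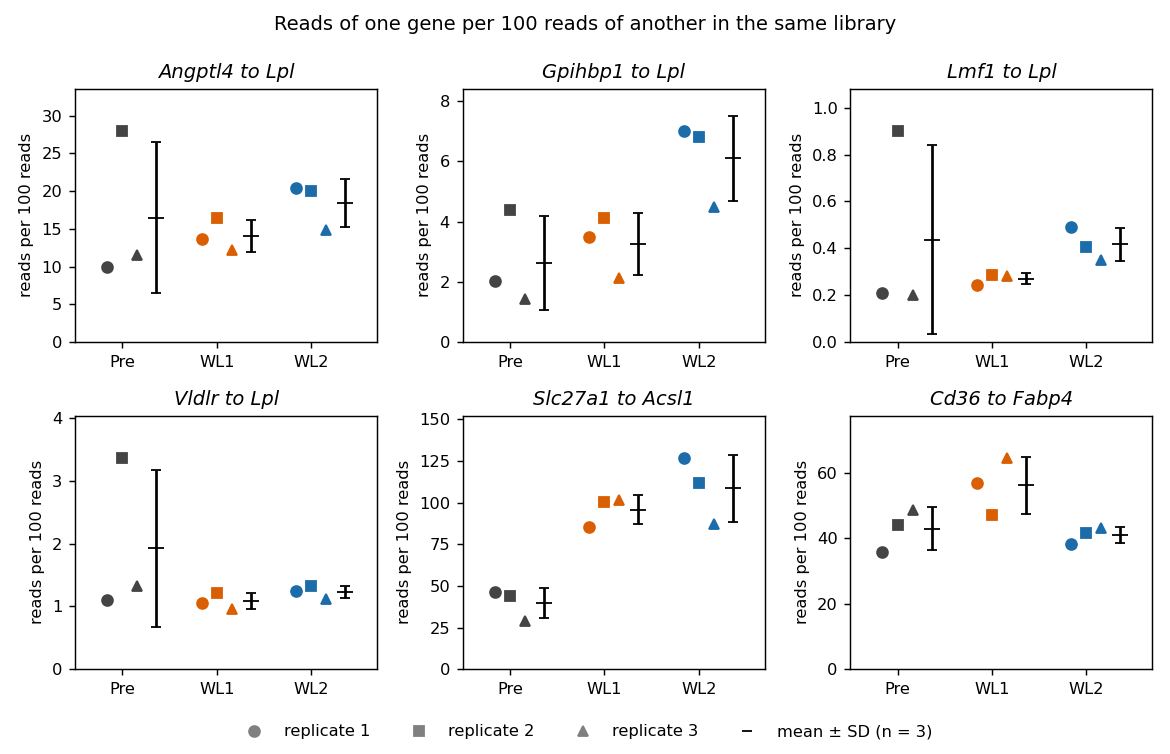
Each panel plots, on a linear axis from 0, the reads of 1 gene per 100 reads of another in the same library, with the mean ± SD (n = 3) of each phase. Pre replicate 2 is the highest point of the Angptl4, Lmf1 and Vldlr ratios to Lpl, and the Slc27a1 to Acsl1 ratio separates Pre (29.1 to 46.3) from the other phases.

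Levels of different genes can be compared only per length, for which the deposited FPKM (fragments scaled by gene length and by library total) were used. At Pre the order was *Fabp4* (2322 ± 485 FPKM), *Cd36* (1223 ± 110), *Lpl* (864 ± 488), *Angptl4* (326 ± 67.5), *Acsl1* (114 ± 13.5), *Slc27a1* (81.9 ± 26.1), *Gpihbp1* (72.9 ± 22.8), *Vldlr* (13.1 ± 2.36) and *Lmf1* (1.90 ± 0.195 FPKM, SD, n = 3). The libraries of *Cd36* and *Lpl*, *Lpl* and *Angptl4*, *Acsl1* and *Slc27a1*, and *Slc27a1* and *Gpihbp1* overlapped there. Within each Pre library, however, *Cd36* was above *Lpl*, *Lpl* above *Angptl4* and *Acsl1* above *Slc27a1*, and only *Slc27a1* and *Gpihbp1* changed places (in replicate 3). At WL2 *Slc27a1* (144 ± 26.1 FPKM) and *Gpihbp1* (117 ± 13.2 FPKM) stood above *Acsl1* (73.8 ± 4.66 FPKM) without overlap, overlapped each other, and the other genes kept their order on this scale. The authors' lengths include bases outside the spliced transcript, since the 4489 bases given for *Fabp4* are its whole span and its longest coding transcript in GENCODE M21 has 896. Per kilobase of the GENCODE transcript *Lpl* stood above *Cd36* at Pre and WL1 (2345 against 1376 and 1916 against 1700 CPM per kilobase) and below it at WL2 (1296 against 1621), so the order of these 2 genes rests on the length used. On the same scale at WL2, *Gpihbp1* was below *Acsl1* (193 against 212), *Slc27a1* above *Angptl4* (320 against 293) and *Lmf1* above *Vldlr* (10.9 against 8.2 CPM per kilobase), so the order at WL2 given by FPKM was not kept there either.

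Other genes of the same pathway were followed in 4 lists, none holding any of the 9 genes. Of their 69 genes 67 were tested. Together 0 were higher and 14 lower past the threshold at WL1 against Pre, 3 higher and 15 lower at WL2 against Pre, and 3 higher and 2 lower at WL2 against WL1, with median log2 fold changes of -0.33, -0.29 and -0.10. The shares and medians of all genes tested are those given beside the 9 genes. These counts moved with the libraries used, to 9 at WL1 against Pre without Pre replicate 1 or 2, and to 6, 7 and 7 without WL1 replicates 1, 2 and 3. At WL2 against WL1, where 5 passed with all libraries, 10 passed once WL2 replicate 1 was dropped and 9 once Pre replicate 2 was. Dropping WL2 replicate 2 or 3 left 0, dropping WL1 replicate 2 left 1, and dropping Pre replicate 3, WL1 replicate 1 or WL1 replicate 3 left 2.

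Among 18 tested genes for lipase maturation, cofactors, inhibitors and receptors, 2 were lower and 0 higher at WL1 against Pre, and 4 were lower and 1 higher at WL2 against Pre. *Angptl8*, an insulin-induced gene whose product modulates lipase inhibition by other angiopoietin-like proteins, was at 11.3, 7.9 and 13.3 CPM at Pre, 2.3, 2.2 and 2.1 CPM at WL1 and 1.3, 1.4 and 1.4 CPM at WL2. It fell at WL1 and WL2 against Pre, with log2 fold changes of -2.28 and -2.97 (edgeR adjusted p = 0.000664 and 6.51e-05). *Apoc1*, which encodes an apolipoprotein that can inhibit the lipase, fell at WL1 (log2 fold change -0.97, adjusted p = 0.0239) and WL2 (-1.33, adjusted p = 0.00355). *Apoc3*, of the same group, fell at WL2 against Pre (-2.51, adjusted p = 0.0155), from between 0.9 and 2.7 CPM to between 0.3 and 0.4 CPM. Other listed genes that the liver is known to express had few reads in the same libraries. *Fabp1* had 2, 16 and 38 reads at Pre, 63, 1 and 0 at WL1 and 0 in each WL2 library. *Apoa5* (0, 13 and 18 reads at Pre) and *Slc27a2* (1, 14 and 21 reads) were likewise highest in WL1 replicate 1 (23 and 34 reads) and at 0 in WL2. None of these 3 genes passed, and their part in the *Apoc3* values was not tested.

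In the other direction, *Apoe*, which encodes a ligand of the VLDL receptor, rose at WL2 against Pre, from 3549, 2504 and 2628 CPM to 6243, 6575 and 5585 CPM (log2 fold change 1.08, SE 0.16, edgeR adjusted p = 0.00236). The WL1 libraries held 3869, 4528 and 3514 CPM. Macrophages also make *Apoe*, and the summed CPM of the 12 macrophage markers was 1777 to 3335 at Pre, 3183 to 5952 at WL1 and 1980 to 3468 at WL2. That of the lipid-associated macrophage markers was 1554 to 2465 at Pre, 4993 to 10861 at WL1 and 1855 to 5756 at WL2. The part of these cells in the *Apoe* values was not tested. *Pcsk6*, which encodes a proprotein convertase, was higher at WL2 than at WL1 (0.97, edgeR adjusted p = 0.0471). It was at 86.1, 141 and 113 CPM at Pre, 84.6, 61.9 and 60.3 CPM at WL1 and 96.4, 149 and 160 CPM at WL2. The summed CPM of the 7 mesothelial markers was 42.5, 428 and 376 at Pre, 253, 49.2 and 132 at WL1 and 271, 581 and 770 at WL2. Its part in the *Pcsk6* values was not tested.

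Among 21 tested genes of fatty acid transport, binding and activation, 3 were lower and 0 higher in each comparison with Pre, and these were *Slc27a4*, *Dbi* and *Cav2* both times. *Slc27a4*, a relative of *Slc27a1*, was at 54.0, 74.3 and 56.1 CPM at Pre, 37.4, 41.1 and 45.3 CPM at WL1 and 38.7, 41.4 and 41.2 CPM at WL2. It fell in both (log2 fold changes -0.57 and -0.60, edgeR adjusted p = 0.0331 and 0.0206), whereas those of *Slc27a1* were 0.74 and 0.81. *Dbi*, which encodes the acyl-CoA-binding protein, fell in both (-0.81 and -1.06, edgeR adjusted p = 0.0278 and 0.00592). *Cav2*, which encodes a caveolar protein, fell likewise (-0.50 and -0.55, adjusted p = 0.0354 and 0.0178). *Fabp5*, a relative of *Fabp4* that macrophages also express, fell at WL2 against WL1 (log2 fold change -1.03, edgeR adjusted p = 0.0496), from 497, 585 and 518 CPM to 383, 234 and 168 CPM. Its highest WL2 value was in replicate 1, the WL2 library with the highest sum of lipid-associated macrophage markers (5756 CPM against 1855 and 1888 CPM), whose part in *Fabp5* was not tested.

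The 14 genes of transcription control included 3 lower and 0 higher in each comparison with Pre. *Srebf1*, which encodes the insulin-responsive regulator SREBP1, fell at WL1 and WL2 (log2 fold changes -0.92 and -0.88, edgeR adjusted p = 0.00171 and 0.00111). *Rxra*, the partner of PPARγ on DNA, fell in both (-0.52 and -0.61, adjusted p = 0.0257 and 0.00905). *Hif1a*, of the response to low oxygen, fell at WL2 against Pre (-0.63, edgeR adjusted p = 0.0159). *Klf15* fell at WL1 against Pre (-0.69, adjusted p = 0.0292) and was higher at WL2 than at WL1 (1.00, adjusted p = 0.0124). *Pparg* itself was at 219, 181 and 189 CPM at Pre, 168, 162 and 139 CPM at WL1 and 206, 255 and 219 CPM at WL2, and passed only at WL2 against WL1 (log2 fold change 0.54, edgeR adjusted p = 0.0456).

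Of 14 PPARγ target genes of lipid storage and breakdown, 6 were lower and 0 higher at WL1 against Pre. At WL2 against Pre, 5 were lower and 2 higher. *Dgat2*, whose product makes triglyceride from diacylglycerol, was at 4362, 3800 and 3981 CPM at Pre, 1180, 1367 and 1404 CPM at WL1 and 703, 829 and 742 CPM at WL2. It fell in all 3 comparisons, by log2 values of -1.62 and -2.42 for WL1 and WL2 against Pre (edgeR adjusted p = 0.000262 and 1.2e-05) and -0.80 at WL2 against WL1 (adjusted p = 0.0110). *Agpat2*, of phosphatidic acid synthesis, fell at WL1 and WL2 (-1.34 and -1.54, edgeR adjusted p = 0.00399 and 0.000956), as did *Gpd1*, which supplies glycerol phosphate (-1.02 and -1.54, adjusted p = 0.00207 and 9.3e-05). *Dgat1*, which catalyses the same step as *Dgat2*, passed in no comparison (log2 fold changes -0.55, -0.30 and 0.25, edgeR adjusted p = 0.0800, 0.299 and 0.446). The genes that rose at WL2 against Pre were *Pck1*, of glyceride synthesis from pyruvate (1.26, adjusted p = 0.0367), and *Aqp7*, a glycerol channel (0.66, adjusted p = 0.0336). *Plin1*, *Cidec*, *Aqp7* and *Lipe* of this list, and *Pparg*, are also among the adipocyte markers, whose sum was lowest at WL1, and the part of that in these counts was not tested.

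**Figure D5:**
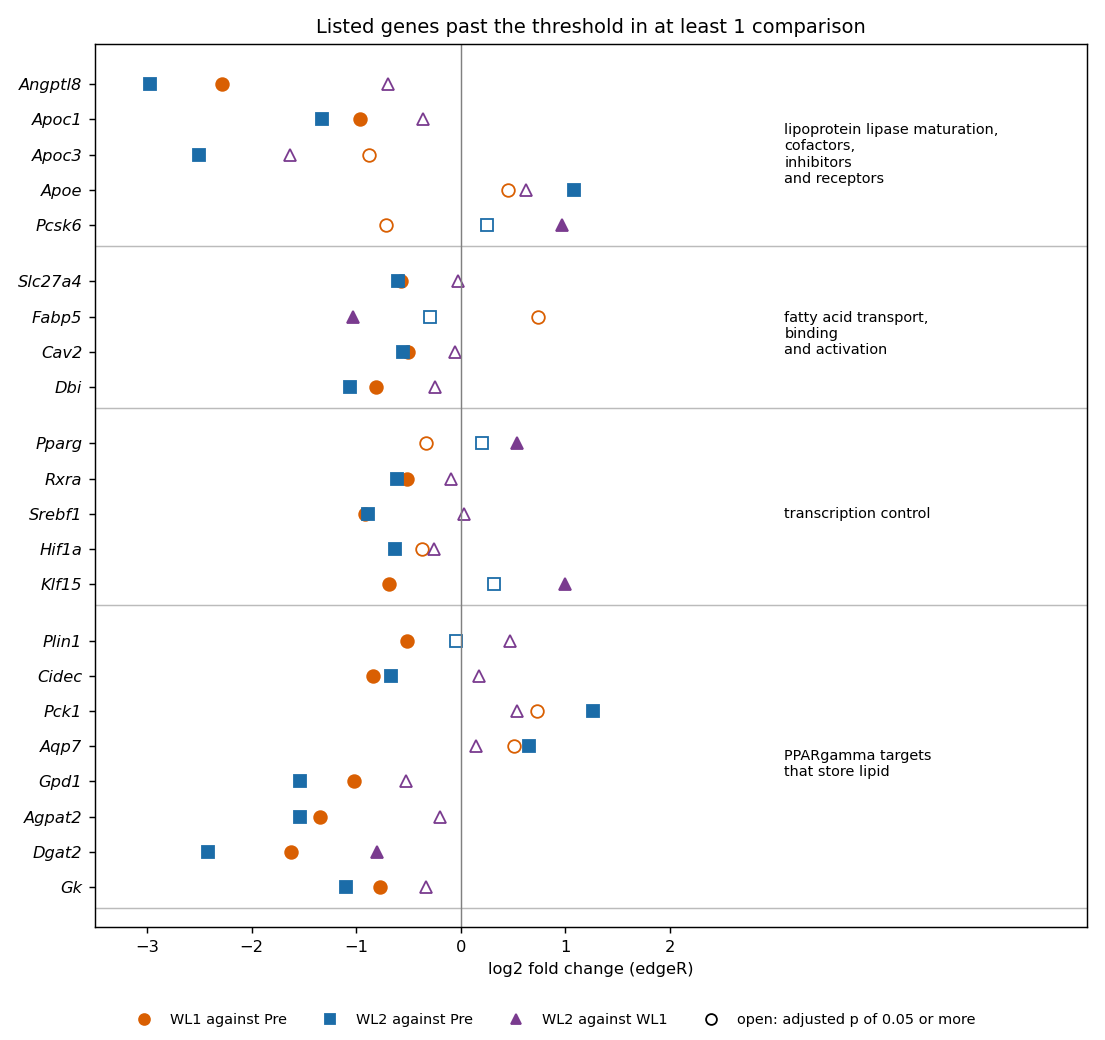
Log2 fold changes are plotted for genes of the 4 lists that passed the threshold in at least 1 comparison, with filled symbols where the adjusted p was under 0.05 and open symbols elsewhere. Most filled symbols against Pre lie left of 0, and Apoe, Pck1 and Aqp7 lie right of it at WL2 against Pre.

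The genes whose levels followed those of the 9 most closely over the 9 libraries were found by the root mean square difference of centred log2 CPM among 14638 genes with a mean of at least 1 CPM. For *Lpl* these were *Ntm* (0.15), *Gm15851* (0.20), *Fhod3* (0.26), *Gm34907* (0.27) and *Gm36827* (0.28), all far less abundant, with means of 1.05 to 10.4 CPM. The nearest gene to *Acsl1* was *Prkar2b* (0.058, mean 710 CPM), which encodes a regulatory subunit of protein kinase A. The nearest gene was *Fhit* for *Vldlr* (0.11), *Lrrc51* for *Slc27a1* (0.15), *Samd12* for *Gpihbp1* (0.13), *Tmem126b* for *Angptl4* (0.082), *Mbd3* for *Lmf1* (0.049), *Zscan29* for *Cd36* (0.058) and *Zfp637* for *Fabp4* (0.097). For genes that vary little, a small difference is easily reached. Some of the genes nearest to *Lpl* had few reads and thus a large counting error, and each was picked from all 14638. These values describe likeness over 9 libraries only.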

How the data were processed

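RNA from epididymal adipose tissue of 9 libraries (3 phases, 3 libraries each) was analysed, with groups and replicate numbers taken from the sample labels. The authors deposited raw counts per gene and FPKM for 56748 genes, and columns that matched no sample numbered 0. The submitters' processing notes name CASAVA, HISAT2, HISAT, TopHat2 and the build GRCm38 (mm10) without roles or versions, and for the counting program and strand setting the sources used here give nothing. The coordinates of 1435 of 52073 shared genes, and of 0 of the 9 genes described, equalled those of GENCODE M21 (GRCm38). The gene positions are those of the deposited table and do not follow GRCm38, although the processing notes name it. No build is stated for them, and the promoter windows are on GRCm38.p6. The deposited FPKM imply library totals of 0.995 to 1.01 times the summed counts at Pre and 1.07 to 1.12 times at WL1 and WL2.

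The genes, the lists and the rule for named genes (all 9 genes, at most 3 genes per list, comparison and direction by largest log2 fold change past the threshold, and the nearest genes) were chosen with earlier results of these data known. *Eif5b*, *Pnisr*, *Prpf38b*, *Rrbp1*, *Adipoq*, *Ucp1*, *Ckm*, *Zic1*, *Myh4*, *Myl1*, *Acta1*, *Fabp1*, *Apoa5*, *Slc27a2*, *Dgat1* and *Gm45244* were named outside this rule, after their values were seen. A listed gene that is included in the counts is not reported here by name or in the plot.

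A gene was tested where 1 or more libraries reached 0.5 CPM, after the study's own filter. The test was glmQLFTest after glmQLFit in edgeR 4.0.16 (R 4.3.3), with TMM factors, all 9 libraries in 1 model and a common dispersion of 0.0478. Log2 CPM for the nearest genes used a prior count of 4. Alternatives were DESeq2 1.42.0, other scaling, other filters, a replicate block, limma 3.58.1 on log2(FPKM + 1) and log2(FPKM + 0.1), the compared phases alone, and each library left out in turn. The code was tested on simulated data. No replicate pair agreed within sampling noise (chi-square over degrees of freedom 9.88 to 53.8). Intervals of fold changes come from the fitted spread between libraries. Promoter windows came from RefSeq, and figures were drawn with matplotlib 3.10.9.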

Additional observations from a re-analysis of the deposited data

How the results depend on the processing

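The log2 fold changes of the 9 genes gave 486 values recomputed under an alternative. Of these, 443 kept their direction and side of the threshold, 18 lost a call, 18 gained one, and 7 changed sign. Counts of genes past the threshold are not part of this tally and are given below. The causes were not tested. Of the 9 genes, 1 was past the threshold at WL1 against Pre, and 3 with DESeq2, 3 without the filter, 2 with DESeq2 size factors, 2 without TMM factors, 2 with the filter on 3 libraries, 2 with the replicate block, and 2 with limma on log2(FPKM + 1) or on log2(FPKM + 0.1). Leaving out single libraries gave 0 to 2 at WL1 against Pre, 1 (without WL2 replicate 2 or 3) to 4 at WL2 against Pre and 0 to 1 at WL2 against WL1. Of the listed pathway genes, 14 passed at WL1 against Pre, 27 with DESeq2 and 9 with the replicate block, and 6 to 17 with single libraries left out. At WL2 against Pre 18 passed, and 12 to 20 with single libraries left out. At WL2 against WL1, 5 passed, and 16 with DESeq2, 13 without the filter, 8 with the compared phases alone, 2 with the replicate block, and 2 with limma on either scale of FPKM, with 0 (without WL2 replicate 2 or 3) to 10 (without WL2 replicate 1) when libraries were left out.

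The values that changed sign were small. They were *Lpl* at WL1 against Pre (9.23e-05 without Pre replicate 1), *Fabp4* at WL1 against Pre (0.017 without TMM factors, 0.10 without Pre replicate 1, 0.022 without WL1 replicate 3), *Lmf1* at WL2 against WL1 (-0.023 without WL1 replicate 1, -0.0065 without WL2 replicate 1) and *Slc27a1* at WL2 against WL1 (-0.090 without WL2 replicate 1). With libraries left out, these 4 ranged from -0.70 to 9.23e-05, from -0.21 to 0.10, from -0.023 to 0.11 and from -0.090 to 0.20.

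Same-numbered libraries did not deviate together (correlations of their deviations from the phase means between -0.28 and 0.11). With so few libraries this cannot exclude that the numbers pair them, and the labels do not say. Over all genes, 1350, 1853 and 681 passed in the 3 comparisons (WL1 against Pre, WL2 against Pre, WL2 against WL1), and 844, 1399 and 330 with the replicate block. The count at WL1 against Pre ranged from 512 (without WL1 replicate 3) to 2344 (DESeq2) and that at WL2 against WL1 from 37 (without WL2 replicate 2) to 1935 (DESeq2). At WL2 against Pre it was 743 without WL2 replicate 2 and 966 without WL2 replicate 3. All 9 genes lie far above the filter, and *Lmf1*, at about 20 to 30 CPM, has the largest counting error among them.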
